A study of Callithrix jacchus with 71 samples.

Results

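One fibroblast, the cell type from which marmoset induced neural stem cell-like cells (iNSLCs) were derived, was compared with 65 single iNSLCs by RamDA-seq, which reads total RNA of single sorted cells along the length of the transcripts. The 66 cells were taken by their labels from 71 cells in all, and the other 5 cells are shown as a reference. The fibroblast was an E01F cell, and E01F was a culture of dorsal skin fibroblasts from an embryonic common marmoset (Callithrix jacchus). The iNSLCs were E01F A2 cells at an early passage. They came from E01F fibroblasts grown in a medium for naive-state stem cells after electroporation of episomal plasmids. These plasmids expressed human reprogramming factors (OCT4, KLF4, SOX2, LIN28 and L-MYC), EGFP as a tracer, and mp53DD, which blocks p53. The reference cells were 4 No.40 ESCs (embryonic stem cells of a marmoset line) and 1 E01F A-2-2 iPSC (an induced pluripotent stem cell derived through iNSLCs), together termed PSC cells.

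The fibroblast was a single cell, and the iNSLCs were treated as 1 source because the labels name no separate cultures, so no test between the groups was made. Each gene was described by the place of the fibroblast value in the range of the 65 iNSLCs. The iNSLCs still held the vectors when they were taken, and reads of POU5F1, SOX2, LIN28A, KLF4 and MYCL from the vectors and from the marmoset genes cannot be told apart in the table. The iNSLCs were induced on mouse feeder cells, and a part of feeder reads in any value was not tested. The passage of the fibroblast culture is not given in the sources used here.

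The fibroblast was sequenced more deeply than any iNSLC. It held 1294430 reads over 14513 detected genes. The iNSLCs held 82268 to 695241 reads (median 268128) over 7574 to 13058 genes (median 10781), and the PSC cells 134328 to 1003718 reads. All values given are normalized counts of the authors, and 1 read was worth 0.405 in the fibroblast and 0.441 to 2.84 in the iNSLCs. The sum of the normalized counts was 523792 in the fibroblast and 218219 to 386818 (median 308880) in the iNSLCs, so the authors' scaling left the fibroblast 1.70-fold above the iNSLC median. The normalized counts are not divided by gene length, so levels are compared between cells for 1 gene and not between genes.

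Skin fibroblasts secrete and hold the collagen matrix of connective tissue. They make fibrillar collagens and the enzymes that modify and cross-link them, matrix glycoproteins such as fibronectin, and an actin cytoskeleton with focal adhesions, under transcription factors of the mesenchyme. Neural stem cells line the neural tube as a polarized epithelium. They express SOX2 and other neural transcription factors, the intermediate filament nestin and Notch signalling genes, and they use N-cadherin at their junctions.

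The markers given for the fibroblast were checked first. The fibroblast had reads of all 5, COL1A1, COL1A2, COL3A1, COL6A2 and ACTA2, with a summed normalized count of 34060. In the iNSLCs the same sum was 0 to 1089 (median 49.9), at most 3.20% of the fibroblast value. No iNSLC had reads of all 5 markers, 5 had reads of 4, 48 had reads of 1 to 3, and 12 had none.

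COL1A1, the first chain of type I collagen, had a normalized count of 9769 in the fibroblast, 0 to 21.0 (median 0) in the iNSLCs, and 96.7, 380, 37.3 and 133 in the ESCs and 20.3 in the iPSC. COL1A2, the second chain, was at 11345 in the fibroblast, 0 to 1069 (median 19.9) in the iNSLCs and 0 to 1.62 in the PSC cells. The chains of this protein differed in how many iNSLCs held them, with reads of COL1A1 in 16 of 65 iNSLCs and of COL1A2 in 45. The iNSLC with the highest COL1A2 value, cell 50, had 0.634 of COL1A1, 1.27 of COL3A1 and 17.7 of ACTA2. COL3A1, the chain of type III collagen, was at 5228 in the fibroblast and at 0 to 4.31 in the iNSLCs, of which 7 had reads. COL6A2, a chain of the microfibrillar type VI collagen, was at 5371 in the fibroblast, 0 to 158 (median 0) in the iNSLCs and 13.0 to 357 in the PSC cells. ACTA2, smooth muscle actin of contractile fibroblasts, was at 2347 in the fibroblast, 0 to 205 (median 2.04) in the iNSLCs and 0 to 3.33 in the PSC cells. All 65 iNSLCs lay below the fibroblast for each of the 5 genes. For COL1A1 the 4 ESCs were above every iNSLC and the iPSC was not. For COL6A2 ESC cell 11 was above every iNSLC, and the other 4 PSC cells, at 13.0 to 51.6, were inside the iNSLC range. ESC cell 11 had the fewest reads of the PSC cells, 134328.

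The markers of other cell types were also read. Of 6 neural stem cell markers the fibroblast had reads of 2, NES and CDH2, and of 6 pluripotent stem cell markers it had none. Among skin, vessel and blood markers it had 5.26 of PMEL, 25.1 of CD68 and 1.21 of KDR, and PECAM1, DES, SOX10 and PTPRC were at 0. The keratinocyte markers have no row in the table.

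**Figure D1:**
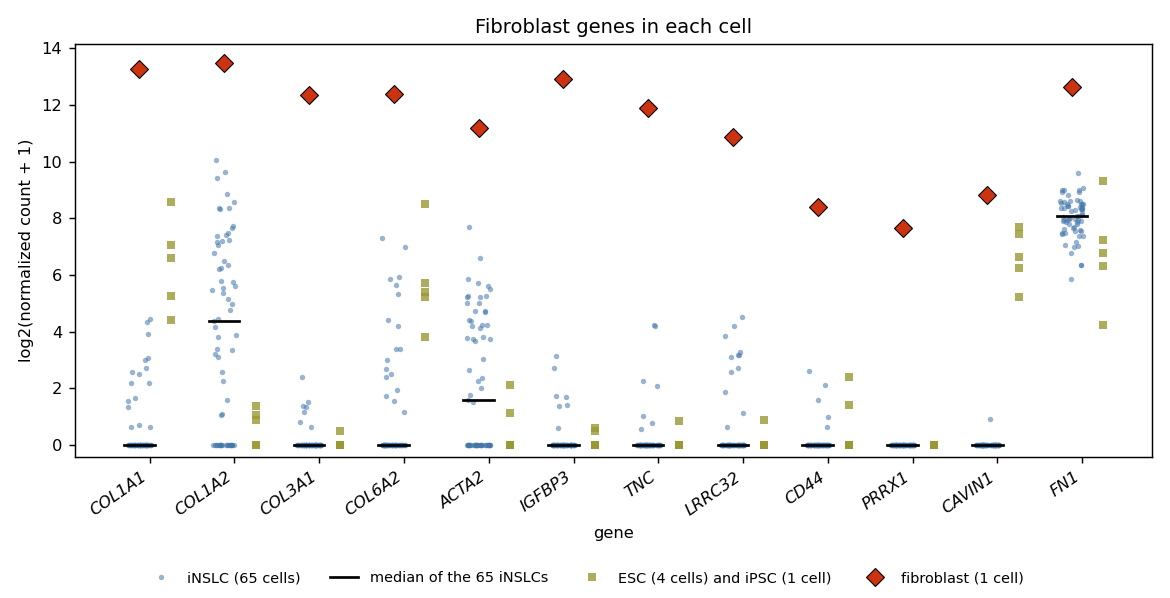
Fibroblast genes in each cell, as log2(normalized count + 1) on the vertical axis for 12 genes. The diamond is the fibroblast, the points are the 65 iNSLCs with their median as a line, and the squares are the 4 ESCs and the iPSC. The fibroblast is above every iNSLC in all 12 genes. PRRX1 has no read in any iNSLC, and all PSC cells are above every iNSLC in CAVIN1.

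To describe all genes by 1 rule, a gene entered where the mean of the fibroblast value and the iNSLC mean was at least 10 normalized counts. It was called higher in the fibroblast where log2((fibroblast + 1)/(iNSLC mean + 1)) was at least 2 and the fibroblast exceeded at least 62 of the 65 iNSLCs, and lower by the mirror rule. Genes called higher were termed lost where at most 6 of 65 iNSLCs had reads and reduced otherwise. Genes called lower were termed gained where the fibroblast had at most 3 reads and increased otherwise. Kept genes had reads in at least 59 iNSLCs, a log2 ratio between -1 and 1, and a fibroblast value inside the iNSLC range. The terms describe cells of the starting culture beside cells of the derived culture, not the same cell at different times.

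Of 23561 genes, 6787 entered. The rule called 1053 (15.5%) higher in the fibroblast, 137 of them lost and 916 reduced, and 305 (4.49%) lower, 131 of them gained and 174 increased. A further 2646 (39.0%) were kept. The fibroblast was above all 65 iNSLCs in 887 of the higher genes and below all 65 in 117 of the lower genes. The split depends on scaling: higher genes made up 77.5% of the calls with the authors' factors, and 47.7% (490 higher, 537 lower) when every cell was scaled to the same total. The median log2 ratio of all genes that entered was 0.47 with the authors' factors and -0.29 at equal totals. A gene that entered through 1 group alone had to differ, and 1349 entered through the fibroblast only and 910 through the iNSLCs only.

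**Figure D2:**
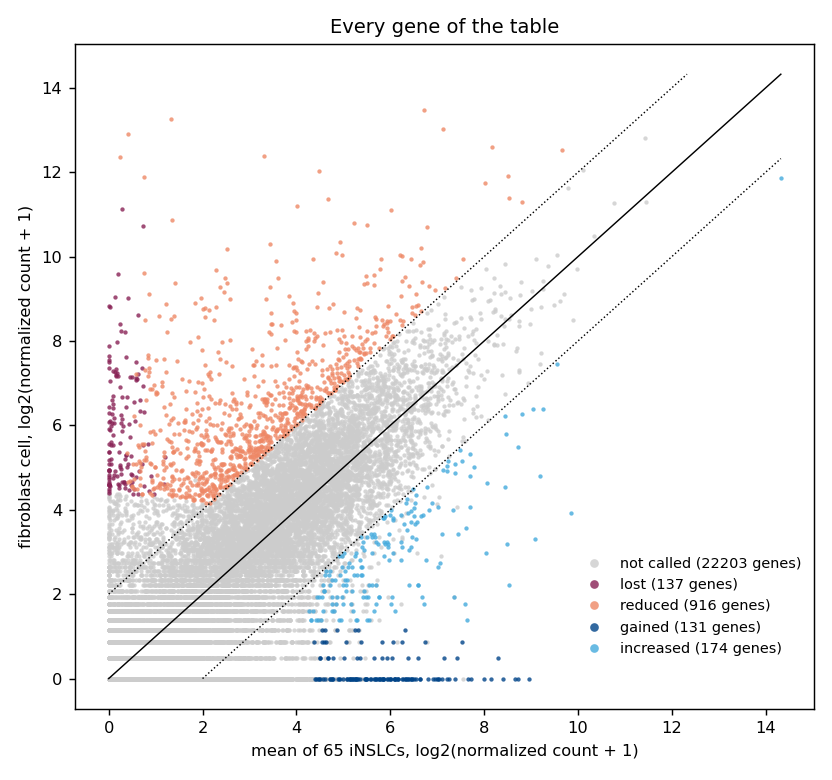
Every gene of the table, where the horizontal axis is the iNSLC mean over 65 cells and the vertical axis is the fibroblast, both as log2(normalized count + 1). Colours mark 137 lost, 916 reduced, 131 gained and 174 increased genes, the solid line is equality and the dotted lines are 4-fold differences. Lost genes lie along the left edge, and gained genes lie along the bottom.

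Of the 151 genes in 7 lists of fibroblast biology, 141 have a row and 114 entered. The rule called 92 of the 114 (80.7%) higher in the fibroblast, against 15.5% of all genes, as 17 lost and 75 reduced. The iNSLCs kept 7 (6.14%), against 39.0% of all genes, 1 was gained, and 14 met no rule. The lists' median log2 ratio was 4.45, and it was 0.47 over all genes. Together the lists took 20.9% of the normalized total of the fibroblast, 0.933% to 2.64% (median 1.58%) of that of the iNSLCs and 1.53% to 2.26% of that of the PSC cells. The ranges of the iNSLCs and PSC cells overlapped, and both lay far below the fibroblast. Some of the 114 entered through the fibroblast alone and had to differ, and 48 of the 114 had an iNSLC median of 0. With no level filter 100 of the 141 were called higher, against 6.32% of all genes. The lists were chosen with earlier results of these data known, so these shares are a description. At equal totals 78 of the list genes were called higher and 2, PDPN and MFAP2, lower. With the iNSLCs numbered 25 to 56 alone (27 cells) 95 were called higher, and with those numbered 57 to 96 (38 cells) 92. In the text below, genes with no call are given by their values. Call counts of each list stand beside 15.5% of all genes called higher, 4.49% lower and 39.0% kept.

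**Figure D3:**
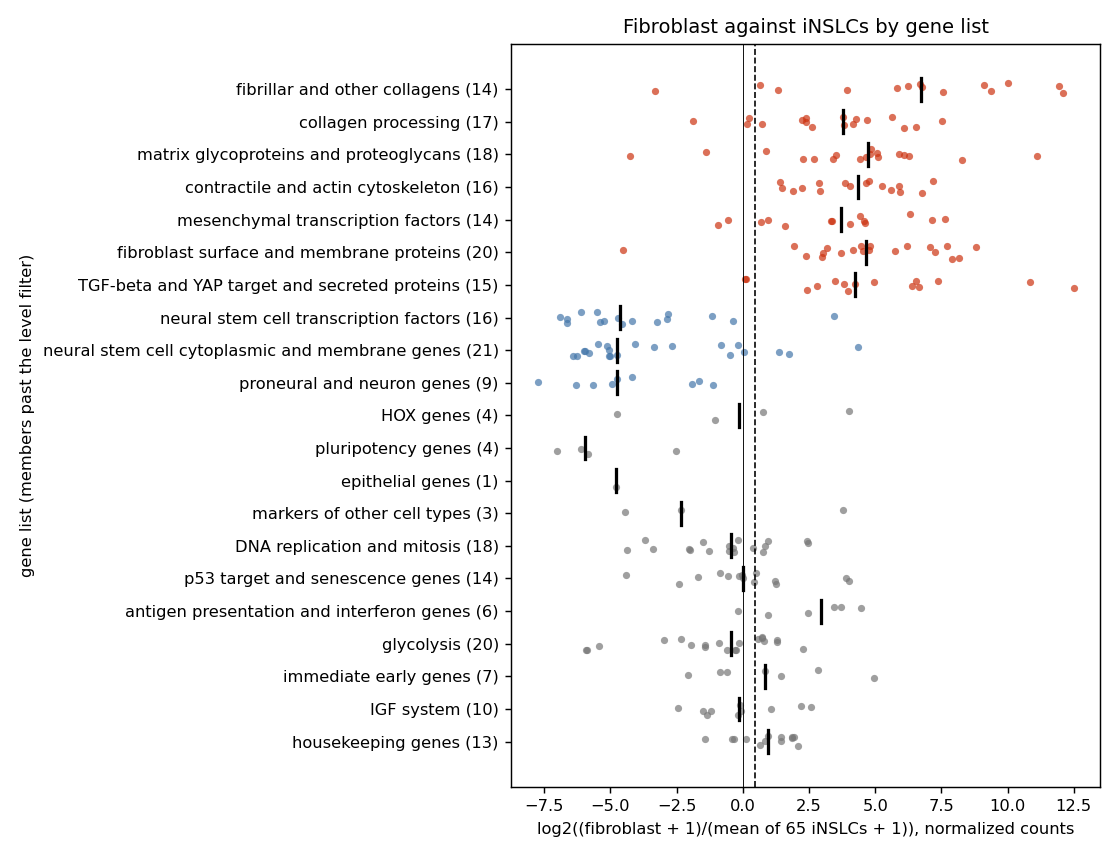
Log2 ratio of the fibroblast to the mean of the 65 iNSLCs on the horizontal axis, by gene list on the vertical axis. Each point is a gene past the level filter, each short bar is the median of a list, and the dashed line is the median of all genes, 0.47. The 7 fibroblast lists (red) have medians of 3.71 to 6.72, and the 3 neural lists (blue) have medians of -4.77 to -4.65. Over all members with a row, past the filter or not, the medians are 2.95 to 6.72 and -4.18 to -1.95.

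Of 14 collagen chains 2 were lost, 9 reduced and 1 kept, with a median log2 ratio of 6.72. The chains took 8.15% of the normalized total in the fibroblast, 0.0425% to 0.439% (median 0.150%) in the iNSLCs and 0.0789% to 0.434% in the PSC cells. COL6A3, another type VI chain, was at 1707 in the fibroblast and had reads in 5 iNSLCs, with a highest value of 25.0. COL16A1, a fibril-associated collagen, was at 769 in the fibroblast and at most 4.73 in the iNSLCs, with reads in 3. Both were lost by the rule. COL5A1, which nucleates type I fibrils, was at 2646 in the fibroblast and at 0 to 173 (median 18.6) in the iNSLCs, and 56 of 65 iNSLCs had reads. COL6A1 was at 4211 in the fibroblast, 0 to 155 (median 9.48) in the iNSLCs and 22.4 to 138 in the PSC cells. The chains of basement membrane collagen had smaller ratios. COL4A1, named after its values were seen, met no rule, at 175 in the fibroblast, 0 to 132 (median 68.2) in the iNSLCs and 85.8 to 327 in the PSC cells. COL4A2 was kept, at 250 in the fibroblast, 9.23 to 361 (median 142) in the iNSLCs and 64.1 to 243 in the PSC cells, and 9 iNSLCs exceeded the fibroblast. COL14A1, named after its values were seen, had 9 reads (3.64) in the fibroblast against 0 to 300 (median 34.4) in the iNSLCs. It lay above the fibroblast in 51 of 65 iNSLCs, too few for a call.

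Among 17 genes that modify, fold or cross-link collagen 1 was lost, 12 were reduced and 2 kept, with a median log2 ratio of 3.79. SERPINH1, the collagen chaperone of the endoplasmic reticulum, was at 981 in the fibroblast, 44.1 to 470 (median 180) in the iNSLCs and 149 to 459 in the PSC cells. LOXL1, which cross-links elastin and collagen, was at 514 in the fibroblast and 0 to 60.3 (median 2.17) in the iNSLCs. The enzymes that hydroxylate collagen were split. PLOD3, a lysyl hydroxylase, was at 402 in the fibroblast and 0 to 50.6 (median 13.3) in the iNSLCs. P4HB, the shared subunit of the prolyl hydroxylases and a general protein disulfide isomerase, was kept, at 573 in the fibroblast and 48.8 to 1210 (median 291) in the iNSLCs. P4HA2, a catalytic subunit, was also kept, at 20.2 in the fibroblast and 0 to 130 (median 13.3) in the iNSLCs. P4HA3, a catalytic subunit named after its values were seen, was at 67.2 in the fibroblast and had no read in any iNSLC or PSC cell, which made it at least 1086-fold higher against the floor of 3 reads over the iNSLCs.

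Of 18 matrix glycoproteins and proteoglycans 2 were lost, 13 reduced and 1 kept, and together they took 4.88% of the normalized total in the fibroblast and 0.143% to 0.903% in the iNSLCs. TNC, tenascin C of wounds and developing tissue, was at 3762 in the fibroblast and at 0 to 17.9 in the iNSLCs, with reads in 7. THBS1, a secreted matricellular protein, was at 8377 in the fibroblast, 0 to 662 (median 91.7) in the iNSLCs and 4.27 to 640 in the PSC cells. Other genes of the list had reads in every iNSLC. FN1, fibronectin, was at 6249 in the fibroblast, 56.7 to 767 (median 269) in the iNSLCs, and 151, 17.9, 79.4 and 108 in the ESCs and 636 in the iPSC. SPARC, a collagen-binding glycoprotein, was at 3823 in the fibroblast and 40.6 to 903 (median 334) in the iNSLCs. FSTL1, a secreted follistatin-like glycoprotein, was kept, at 382 in the fibroblast, 9.23 to 608 (median 183) in the iNSLCs and 86.8 to 242 in the PSC cells. POSTN and FBLN1, named after their values were seen, showed both extremes. POSTN, periostin, was at 76.9 in the fibroblast and had no read in any other cell, at least 1243-fold higher than the iNSLCs. FBLN1, fibulin 1, had 2 reads (0.809) in the fibroblast, 0 to 156 (median 20.3) in the iNSLCs and 56.6 to 304 in the PSC cells.

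None of the 16 contractile and actin genes was lost and 13 were reduced, with a median log2 ratio of 4.34. TAGLN, transgelin, was at 988 in the fibroblast and 0 to 213 (median 7.89) in the iNSLCs, of which 47 had reads. TPM1, a tropomyosin of stress fibres, was at 1091 in the fibroblast, 0 to 87.5 (median 26.6) in the iNSLCs and 23.8 to 71.5 in the PSC cells. FLNA, which cross-links actin filaments, was at 5881 in the fibroblast, 1.32 to 1900 (median 737) in the iNSLCs and 692 to 1385 in the PSC cells. The iNSLC and PSC ranges overlapped for TPM1 and FLNA, and every iNSLC was below the fibroblast.

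Of 14 mesenchymal transcription factors 5 were lost, 4 reduced and 2 kept. PRRX1, a homeobox factor of limb and skin mesenchyme, was at 199 in the fibroblast and had no read in any iNSLC or PSC cell, at least 3219-fold higher than the iNSLCs. TWIST2, a bHLH factor of the dermis, was at 84.2 in the fibroblast and had reads in 1 iNSLC, at 4.59. PRRX2 was at 152 in the fibroblast and had reads in 2 iNSLCs, with a highest value of 3.96. RUNX1, named after its values were seen, was at 23.1 in the fibroblast and had no read elsewhere, at least 373-fold higher. SNAI2, a repressor of E-cadherin, was reduced, at 60.3 in the fibroblast and 0 to 41.1 (median 2.37) in the iNSLCs. The ZEB factors, repressors of epithelial genes that the neural tube also expresses, were kept. ZEB1 was at 11.3 in the fibroblast, 0 to 146 (median 13.2) in the iNSLCs and 0 to 2.14 in the PSC cells. ZEB2 was at 17.8 in the fibroblast, 0 to 113 (median 33.6) in the iNSLCs and 0 to 0.405 in the PSC cells, and 48 iNSLCs were above the fibroblast. At equal totals neither ZEB gene met the rule for kept, since the iNSLC mean was then more than 2-fold above the fibroblast.

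Of 20 surface and membrane proteins 4 were lost and 14 reduced, 1 was gained and 1 met no rule. CD44, the hyaluronan receptor, was at 337 in the fibroblast and at most 5.07 in the iNSLCs, with reads in 5. DDR2, a receptor for fibrillar collagen, was at 235 in the fibroblast, had no read in any iNSLC and was at 5.83 in 1 ESC, at least 3802-fold higher than the iNSLCs. CAVIN1, which coats caveolae, was at 450 in the fibroblast and had 1 read in 1 of 65 iNSLCs, although the ESCs held 75.3, 174, 204 and 99.1 and the iPSC 36.3. CAV1, the caveolin of the same pits, was at 480 in the fibroblast, 0 to 16.9 (median 0) in the iNSLCs and 0 to 7.02 in the PSC cells. LRP1, an endocytic receptor, was at 3406 in the fibroblast, 13.3 to 743 (median 236) in the iNSLCs and 488 to 2867 in the PSC cells. PDPN, podoplanin, named after its values were seen, was the gained gene, with 1 read (0.405) in the fibroblast, 0 to 106 (median 27.6) in the iNSLCs and 38.3 to 268 in the PSC cells.

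For 12 of the 92 fibroblast-list genes called higher, every PSC cell was above the iNSLC mean: COL1A1, COL6A1, COL6A2, PLOD3, P3H1, FBLN2, TPM2, ACTN1, VCL, PDGFRB, CAVIN1 and LRP1. The same held for 191 of all 1053 genes called higher. The rule compares PSC cells with the iNSLC mean, and single iNSLCs could exceed single PSC cells, as in COL1A1, COL6A1 and COL6A2.

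Of 15 secreted proteins and targets of TGF-beta and YAP signalling 3 were lost, 10 reduced and 1 kept. IGFBP3, which binds insulin-like growth factors, had the highest log2 ratio of all called genes, 12.5, at 7706 in the fibroblast and 0 to 7.91 in the iNSLCs, with reads in 7. CCN1, an immediate target of YAP, was at 437 in the fibroblast, 0 to 282 (median 14.4) in the iNSLCs and 0 to 183 in the PSC cells. A matrix protease and its activator differed. MMP14, a membrane-bound protease that activates MMP2, was at 444 in the fibroblast and 0 to 25.4 (median 0) in the iNSLCs. MMP2, gelatinase A, was kept, at 366 in the fibroblast, 71.5 to 1021 (median 295) in the iNSLCs and 2.02 to 55.8 in the PSC cells. The fibroblast was inside the iNSLC range for MMP2, with 23 iNSLCs above it, and every iNSLC was above every PSC cell. Of the 7 kept genes MMP2 and P4HB were kept under every alternative, and with the iNSLCs numbered 25 to 56 alone COL4A2, FSTL1, ZEB1 and ZEB2 were not.

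Outside the lists, the genes with the largest ratios included LRRC32, which holds latent TGF-beta at the cell surface, at 1884 in the fibroblast and 0 to 21.8 (median 0) in the iNSLCs. CYP1B1, a cytochrome P450, was at 525 in the fibroblast and had reads in 2 iNSLCs. CEMIP, which degrades hyaluronan, was at 777 in the fibroblast and at most 13.3 in the iNSLCs. SOST, sclerostin, an inhibitor of WNT signalling, was at 456 in the fibroblast, had 1 read in 1 iNSLC and was at 0 in the PSC cells. Of the 137 lost genes 28 had no read in any iNSLC, 41 had none in any PSC cell, and 23 had a PSC mean of at least 10. Of all 1053 genes called higher, 551 had a PSC mean of at least 10.

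The fibroblast was next set against the PSC cells, to see how much of what marks it there was left in iNSLCs. Of 6458 genes with a fibroblast value of at least 10, 1199 (18.6%) were above every PSC cell with a log2 ratio to the PSC mean of at least 2. The fibroblast value chose this set, so its level in iNSLCs is a description. The iNSLC median was under 1% of the fibroblast value in 464 genes (38.7%), from 1% to under 10% in 193 (16.1%), from 10% to under 50% in 424 (35.4%) and at least 50% in 118 (9.84%). By the rule above, 668 of the 1199 (55.7%) were also called higher than iNSLCs, 117 of these lost, and 105 were kept and 6 lower. Over all genes that entered, 15.5% were called higher, 39.0% kept and 4.49% lower. The set was chosen as high in the fibroblast, so its shares and those of all genes are not on equal terms. Shares of the iNSLC median over all genes are not given here.

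The 10 genes of this set with the highest iNSLC median as a percent of the fibroblast value were led by BOC and NR2F1. BOC, a receptor for Hedgehog ligands, was at 83.0 in the fibroblast, 36.8 to 2038 (median 568) in the iNSLCs and 0.405 to 27.8 in the PSC cells. NR2F1, a nuclear receptor of the neural tube and face, was at 13.8 in the fibroblast, 6.66 to 359 (median 89.7) in the iNSLCs and 0 in the PSC cells. IGFBP2, which binds insulin-like growth factors, was at 3738 in the fibroblast, 5766 to 61598 (median 20551) in the iNSLCs and 87.5 to 823 in the PSC cells. It was below every iNSLC, by 5.49-fold against their mean, and above every PSC cell. GAS1, a co-receptor of Hedgehog ligands, was at 29.1 in the fibroblast, 0 to 232 (median 49.8) in the iNSLCs and 0 in the PSC cells. MN1, SRGAP3, FAT3, SDK2, LGALS3BP and ZEB2 completed the 10, with iNSLC medians of 189% to 533% of the fibroblast value. VIM, vimentin of mesenchymal and neural stem cells, met no rule, at 7161 in the fibroblast, 670 to 7552 (median 2333) in the iNSLCs and 0.810 to 15.3 in the PSC cells. CDH2, N-cadherin, was at 97.5 in the fibroblast, 23.9 to 329 (median 114) in the iNSLCs and 0 to 0.405 in the PSC cells. All 65 iNSLCs were above all 5 PSC cells for VIM, CDH2 and IGFBP2, with the fibroblast inside the iNSLC range for VIM and CDH2.

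**Figure D4:**
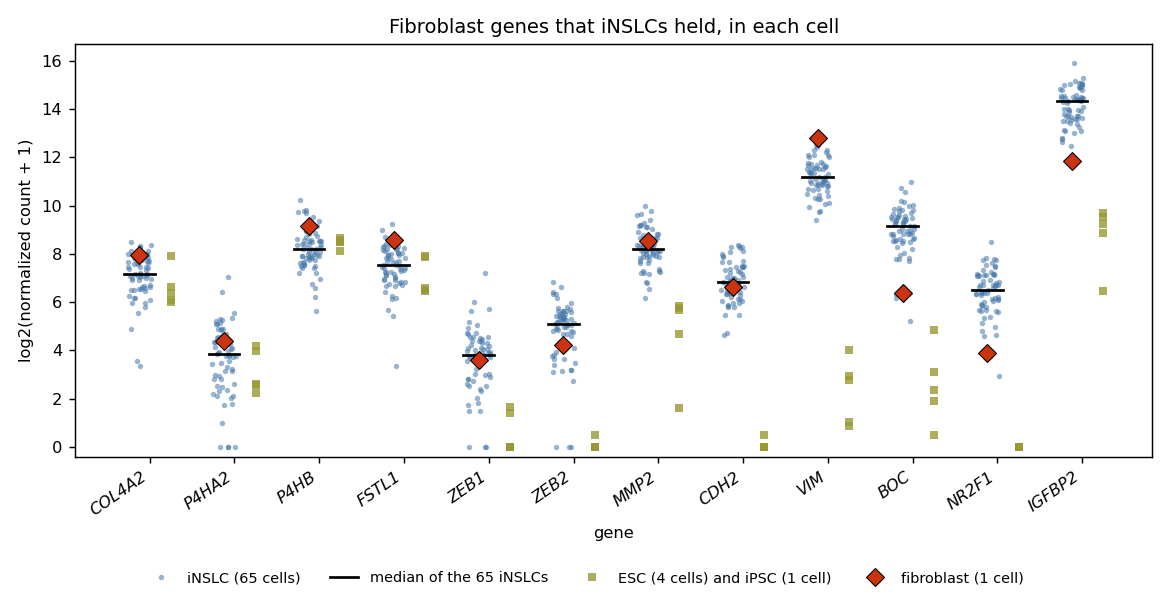
Fibroblast genes that iNSLCs held, as log2(normalized count + 1) on the vertical axis for 12 genes, with the fibroblast as a diamond, the 65 iNSLCs as points with their median as a line, and the 5 PSC cells as squares. The fibroblast lies inside the iNSLC range in all genes but IGFBP2, where it is at 3738 against an iNSLC minimum of 5766. CDH2, NR2F1 and ZEB2 are at or near 0 in PSC cells on this scale. The rule called IGFBP2 and NR2F1 increased in the iNSLCs, so held does not mean unchanged for them.

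Of the genes lower in the fibroblast, 97 of the 131 gained genes had no fibroblast read, and a count of 0 there allows a level of up to 1.21 normalized counts. Folds for these genes are against that floor, which covers counting error only. A gained gene had at most 3 fibroblast reads, so it passed the level filter through the iNSLCs alone and had to differ. CELSR2, a cadherin of planar cell polarity, was at 0 in the fibroblast, 156 to 991 (median 446) in the iNSLCs and 71.5 to 268 in the PSC cells, at least 406-fold higher in the iNSLCs. VANGL2, a core protein of the same pathway, was at 0 in the fibroblast, 63.0 to 547 (median 237) in the iNSLCs and 9.16 to 76.6 in the PSC cells, at least 208-fold higher. CRB2, which sets the apical side of epithelia, was at 0 in the fibroblast, 0 to 1195 (median 356) in the iNSLCs and 2.16 to 31.2 in the PSC cells. The genes with the largest ratios also held 2 members of a receptor family of the early neural tube. IGDCC3 was at 0 in the fibroblast and 75.9 to 997 (median 387) in the iNSLCs, at least 349-fold higher. PRTG, protogenin, was at 0 in the fibroblast and 32.1 to 1390 (median 253) in the iNSLCs, at least 278-fold higher. LRP2, an endocytic receptor of the neuroepithelium, was at 0 in the fibroblast and in the 5 PSC cells, and at 7.91 to 281 (median 119) in the iNSLCs. CHD7, a chromatin remodeller of neural crest and brain, was at 0 in the fibroblast, 25.5 to 258 (median 105) in the iNSLCs and 0 to 10.7 in the PSC cells. Every iNSLC lay above the fibroblast for each of these genes except CRB2, which had reads in 64 of 65.

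**Figure D5:**
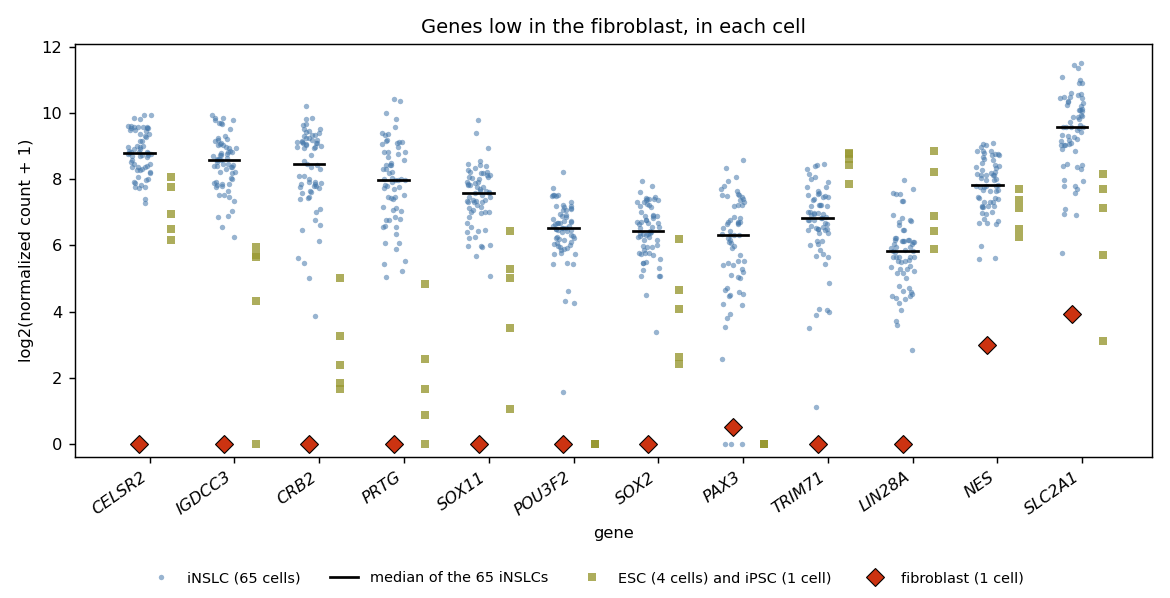
Genes low in the fibroblast, as log2(normalized count + 1) on the vertical axis for 12 genes, with symbols as in the other plots of single genes. The fibroblast is at or near 0 in all but NES (6.88) and SLC2A1 (14.2). TRIM71 and LIN28A are higher in every PSC cell than at the iNSLC median, and POU3F2 and PAX3 are at 0 in PSC cells.

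Of 16 neural stem cell transcription factors 8 were gained, 1 increased, 1 kept and 1 lost, beside 4.49% of all genes called lower, 39.0% kept and 15.5% higher. The list's median log2 ratio was -4.65 (-3.84 where a fibroblast value of 0 was raised to the floor). The 8 gained genes entered through the iNSLCs alone and had to differ. Over the list's 21 members with a row, past the level filter or not, the median was -4.18. POU3F2, a POU factor of neural progenitors, was at 0 in the fibroblast and the PSC cells and at 1.94 to 299 (median 90.4) in the iNSLCs, at least 81.4-fold higher. SOX2 was at 0 in the fibroblast, 9.45 to 246 (median 86.1) in the iNSLCs and 4.27 to 72.3 in the PSC cells, and reads of the vector may be part of the iNSLC value. ZIC2, a zinc finger factor of the dorsal neural tube, was at 0 in the fibroblast, 0.742 to 567 (median 101) in the iNSLCs and 0 to 120 in the PSC cells. PAX3, another dorsal factor, had 1 read (0.405) in the fibroblast, 0 in the PSC cells and 0 to 385 (median 78.1) in the iNSLCs, of which 62 had reads. PAX6, named after its values were seen, was at 0 in the fibroblast and the PSC cells and at 0 to 87.7 (median 18.2) in the iNSLCs, of which 63 had reads. Some neural factors were present in the fibroblast. ZIC1 was at 31.6 in the fibroblast and 0 to 331 (median 37.1) in the iNSLCs, so the fibroblast was inside their range, with 35 iNSLCs above it. MEIS2, a homeobox cofactor and the kept gene of the list, was at 19.0 in the fibroblast and 1.53 to 72.5 (median 23.1) in the iNSLCs. TFAP2C, an AP-2 factor and the lost gene of the list, was at 19.8 in the fibroblast, had reads in 3 iNSLCs and was at 10.2 to 86.6 in the PSC cells. MEIS2 and TFAP2C were named after their values were seen.

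Of 21 other neural stem cell genes 7 were gained, 4 increased, 4 kept and 1 reduced, beside 4.49% of all genes called lower, 39.0% kept and 15.5% higher. The 7 gained genes entered through the iNSLCs alone and had to differ. The list's median log2 ratio was -4.77 (-3.85 with the floor in place of 0), and -3.75 over its 32 members with a row. NES, nestin, was at 6.88 in the fibroblast, 46.9 to 545 (median 228) in the iNSLCs and 75.9 to 207 in the PSC cells, and the iNSLC mean was 37.9-fold above the fibroblast. TTYH1, a membrane protein of neural progenitors, was at 2.43 in the fibroblast and 5.80 to 516 (median 176) in the iNSLCs. NOTCH1 was at 54.6 in the fibroblast, 58.3 to 1281 (median 307) in the iNSLCs and 140 to 552 in the PSC cells. All iNSLCs exceeded the fibroblast for these 3 genes. MSI1, an RNA-binding protein of neural stem cells, was at 0 in the fibroblast and 11.6 to 206 (median 64.3) in the iNSLCs, at least 62.1-fold higher. The kept genes were CDH2, WNT7A, NCAM1 and CRABP2. WNT7A was at 66.0 in the fibroblast, 0 to 552 (median 80.6) in the iNSLCs and 0 in the PSC cells. NCAM1, a neural cell adhesion molecule, was at 67.2 in the fibroblast and 2.39 to 220 (median 59.5) in the iNSLCs. CRABP1, which binds retinoic acid, met no rule, at 15.8 in the fibroblast and 0 to 3028 (median 4.77) in the iNSLCs, with 23 iNSLCs above the fibroblast. SFRP1, a secreted WNT inhibitor, was at 172 in the fibroblast, 0 to 87.0 (median 0) in the iNSLCs and 23.5 to 214 in the PSC cells. MSI1, WNT7A, NCAM1, CRABP2 and SFRP1 were named after their values were seen. The list's sum was 1.48% of the total in the fibroblast and 0.774% to 3.21% (median 1.47%) in the iNSLCs, an overlap that rests on VIM, which is a member.

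Of 21 proneural and neuron genes with a row 9 entered, of which 1 was gained and 3 increased, beside 4.49% of all genes called lower. The median log2 ratio over the 21 was -1.95. SOX11, a SoxC factor of progenitors and young neurons, was at 0 in the fibroblast, 32.5 to 896 (median 191) in the iNSLCs and 1.07 to 85.8 in the PSC cells. TUBB2B, a tubulin of young neurons, was at 3.64 in the fibroblast, 40.8 to 936 (median 355) in the iNSLCs and 24.2 to 86.8 in the PSC cells. DPYSL3, which acts in growth cones, was at 2.43 in the fibroblast, 15.6 to 419 (median 81.5) in the iNSLCs and 23.0 to 110 in the PSC cells. The fibroblast was below every iNSLC for these 3 genes.

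Of 19 pluripotency genes with a row only 4 entered, and 3 of these were gained, beside 4.49% of all genes called lower. The 3 were at 0 in the fibroblast, so they entered through the iNSLCs alone and had to differ. Over all 19 genes the median log2 ratio was -0.31. The PSC cells were higher than the iNSLCs in the list's sum, at 0.478% to 0.968% of the total against 0.0309% to 0.293%. TRIM71, a target of let-7 in early embryos, was at 0 in the fibroblast, 1.16 to 352 (median 113) in the iNSLCs, and 233, 437, 444 and 345 in the ESCs and 389 in the iPSC. SALL4, a zinc finger factor, was at 0 in the fibroblast, 4.59 to 228 (median 47.1) in the iNSLCs and 61.3 to 193 in the PSC cells. LIN28A, which blocks let-7 processing, was at 0 in the fibroblast, 6.08 to 251 (median 55.6) in the iNSLCs and 58.7 to 461 in the PSC cells, with the same limit from the vectors as SOX2. DNMT3B, a DNA methyltransferase, met no rule, at 3.24 in the fibroblast, 0 to 77.8 (median 22.6) in the iNSLCs and 235 to 1201 in the PSC cells. Over all 131 gained genes 79 had a PSC mean of at least 10, 16 had a PSC mean under 1 and 10 had no read in any PSC cell. The same shares over all genes are not given here, so these counts are a description.

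Of 23 epithelial genes with a row only 1 entered, F11R, a tight junction protein. It was gained, at 0 in the fibroblast, 0 to 98.8 (median 19.9) in the iNSLCs and 10.2 to 110 in the PSC cells. HOX genes, which set position along the body axis, entered in 4 of 31 with a row. HOXC8, of the thoracic region, was reduced, at 31.2 in the fibroblast and 0 to 22.3 (median 0) in the iNSLCs, of which 9 had reads. HOXB2, of the hindbrain, was at 6.88 in the fibroblast and 0 to 75.7 (median 11.1) in the iNSLCs. HOXC5 was at 13.8 in the fibroblast and 0 to 49.6 (median 0.557) in the iNSLCs. HOXD4 was at 0 in the fibroblast and 0 to 118 (median 22.3) in the iNSLCs, of which 54 had reads, too few for a call. The PSC cells had no read of these 4 genes.

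Of 18 genes of DNA replication and mitosis 2 were reduced, MCM2 and MCM5, and 2 kept, beside 15.5% of all genes called higher and 39.0% kept. MCM2, of the replicative helicase, was at 110 in the fibroblast, 0 to 100.2 (median 8.13) in the iNSLCs and 20.4 to 222 in the PSC cells. MKI67, a marker of cycling cells, was at 1.62 in the fibroblast (4 reads) and 0 to 533 (median 6.98) in the iNSLCs, of which 38 had reads. Of 14 p53 targets, senescence genes and cyclins 2 were reduced, close to the 15.5% of all genes called higher, and 2 were kept, beside 39.0%. CCND1, cyclin D1, was reduced, at 1662 in the fibroblast and 0 to 583 (median 65.1) in the iNSLCs. CCND2, cyclin D2, went the other way without a call, at 106 in the fibroblast and 20.4 to 2403 (median 306) in the iNSLCs, of which 57 were above it. CDKN1A, the cyclin-dependent kinase inhibitor p21, was at 238 in the fibroblast, 0 to 415 (median 79.0) in the iNSLCs and 0 to 15.8 in the PSC cells. For CDKN1A 5 of 65 iNSLCs were above the fibroblast. The plasmids also expressed mp53DD, and its effect on these genes was not tested.

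Of 16 antigen presentation and interferon genes with a row 6 entered, and 4 of these were reduced, beside 15.5% of all genes called higher. A gene that entered through the fibroblast alone had to differ. The median log2 ratio was 2.96 for the 6 that entered and 0.42 over all 16, beside 0.47 for all genes that entered. B2M, the light chain of MHC class I, was at 51.8 in the fibroblast and 0 to 23.3 (median 2.38) in the iNSLCs. TAPBP, of the peptide loading complex, was at 75.3 in the fibroblast and 0 to 39.5 (median 1.62) in the iNSLCs. IFI6, induced by interferon, was at 66.4 in the fibroblast and 0 to 15.4 (median 0) in the iNSLCs. The fibroblast exceeded every iNSLC in these 3 genes.

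Of 20 glycolysis genes 9 were kept, 1 was gained, 2 increased and 1 reduced. Over all genes 39.0% were kept, 4.49% called lower and 15.5% called higher. SLC2A1, the glucose transporter GLUT1, was increased, at 14.2 in the fibroblast, 53.4 to 2941 (median 764) in the iNSLCs and 7.66 to 285 in the PSC cells, and the iNSLC mean was 65.1-fold above the fibroblast. HK2, a hexokinase named after its values were seen, was at 2.83 in the fibroblast and 0 to 1009 (median 98.7) in the iNSLCs, of which 59 were above it, too few for a call. GAPDH was kept, at 2495 in the fibroblast and 1008 to 6393 (median 2519) in the iNSLCs. PKM, which forms pyruvate, met no rule, at 722 in the fibroblast and 71.6 to 596 (median 297) in the iNSLCs.

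Of 15 immediate early genes with a row 7 entered, of which 1 was lost, 1 reduced and 1 kept, beside 15.5% of all genes called higher and 39.0% kept. The median log2 ratio was 0.83 for the 7, with a lowest value of -2.06, and -0.86 over all 15. The list's sum was 0.0370% of the normalized total in the fibroblast and 0.00513% to 0.270% (median 0.0485%) in the iNSLCs. KLF2, a Kruppel-like factor, was at 29.9 in the fibroblast and had no read in any iNSLC, at least 484-fold higher. MYC was at 26.3 in the fibroblast, 0 to 29.1 (median 0) in the iNSLCs and 0 to 186 in the PSC cells. JUN was kept, at 25.1 in the fibroblast and 0 to 301 (median 27.9) in the iNSLCs. Of 10 genes of the IGF system IGFBP2 was increased, 2 were reduced and 2 kept, beside 4.49% of all genes called lower, 15.5% higher and 39.0% kept. IGF1R, the receptor, was reduced, at 403 in the fibroblast and 0 to 347 (median 66.3) in the iNSLCs. IGF2BP1, an RNA-binding protein of fetal tissues, was kept, at 119 in the fibroblast and 15.9 to 322 (median 114) in the iNSLCs. The IGF list took 0.924% of the normalized total in the fibroblast, 2.78% to 16.04% in the iNSLCs and 0.160% to 0.413% in the PSC cells, and IGFBP2 made up most of the iNSLC sum.

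Of 13 housekeeping genes 5 were kept, against 39.0% of all genes, and 1 was reduced, against 15.5% of all genes called higher. The fibroblast was above all 65 iNSLCs in 6 of the 13. ACTB, beta-actin, was at 4254 in the fibroblast and 196 to 2625 (median 991) in the iNSLCs. RPL13A, of the large ribosomal subunit, was kept, at 450 in the fibroblast and 261 to 1856 (median 548) in the iNSLCs. EEF1A1, the elongation factor, was kept, at 1428 in the fibroblast and 661 to 2425 (median 1233) in the iNSLCs. The list's median log2 ratio was 0.96, and 0.20 at equal totals, so small ratios of single genes depend on the scaling.

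Pearson correlation of log2(normalized count + 1) across 14150 genes placed the fibroblast outside most of the spread of the iNSLCs. It was 0.404 to 0.582 (median 0.501) between the fibroblast and the 65 iNSLCs, and 0.497 to 0.778 (median 0.619) between pairs of iNSLCs. For 52 of 65 iNSLCs the correlation with the fibroblast was lower than that with any other iNSLC. The fibroblast correlated with the ESCs at 0.372 to 0.590 and with the iPSC at 0.542, ranges that overlap that of the iNSLCs. The median was 0.459 for the iNSLCs numbered 25 to 56 and 0.527 for those numbered 57 to 96. After thinning to 100000 reads per cell, possible for 62 iNSLCs, the medians were 0.461 with the fibroblast and 0.584 between iNSLCs. Genes are not independent replicates, and the points share the fibroblast library, so the correlations are given as a description.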

How the data were processed

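Single cells were sorted into a plate and total RNA was made into libraries with a RamDA-seq kit and Nextera XT. The signal values in the table that the authors deposited are normalized counts with 1 factor per cell. Seurat 3.0.0, featureCounts 1.5.1, STAR 2.6.0c and Trimmomatic are listed in the submitters' processing notes, which assign no step to them. The genome build was not given in the sources used here, nor were the gene models. All values of a cell were whole reads times that cell's factor (largest deviation 0.00115 of a read, and 100% of non-zero values within 0.02), from which reads per cell were counted. A count test was not run, because a group of 1 cell has no spread. A row with no gene name, at most 0.449% of a cell's total, was left out. The floor of 3 reads was 1.21 normalized counts in the fibroblast and 0.0618 over the 65 iNSLCs.

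The call rules are given with the results, and they used a pseudocount of 1. Text names the 5 markers, the 20 genes with the largest ratio in each direction among called genes with a gene symbol, up to 6 members of each of 22 lists by level, the kept genes of the fibroblast lists, and 10 genes from the comparison with PSC cells. Other names were chosen after values were seen, among them the PSC-above-iNSLC genes of the fibroblast lists. The members and lists were chosen with earlier results of these data known. Of 471 list entries 41 have no row, and a few genes of the lists are not reported by name. Alternatives were another pseudocount, other level filters, the iNSLC median, equal totals, cells thinned to 100000 reads, subsets of iNSLCs and each PSC cell left out. Python 3.11.15, pandas 2.3.3, numpy 2.4.6, scipy 1.17.1 and matplotlib 3.10.9 were used.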

Additional observations from a re-analysis of the deposited data

Results flagged for a closer look

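Surface and membrane proteins of fibroblasts took 1.02% of the normalized total in ESC cell 11 and 0.440% to 0.506% in the other 3 ESCs, a gap that set this cell apart from its group. It was 1 of 10 list sums examined in the ESCs, and chance alone sets apart about 1 in 20 groups. The same list took 1.72% in the fibroblast and 0.0883% to 0.404% in the iNSLCs, so the order of the groups does not rest on this cell. ESC cell 11 was the shallowest ESC, with 134328 reads over 7126 genes. The other ESCs held 464547 to 1003718 reads over 15122 to 15521 genes. Whether depth bears on the gap was not tested.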

How the results depend on the processing

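No call turned to the opposite direction under any alternative. With the authors' factors 1053 genes were called higher and 305 lower. The counts were 560 and 179 with a pseudocount of 10, 430 and 78 with a mean of at least 50, and 490 and 537 with every cell scaled to the same total. With the fibroblast scaled to a median log2 ratio of 0, an alternative chosen after seeing the data, 644 were higher and 414 lower, and where the fibroblast had to lie beyond all iNSLCs 887 were higher and 117 lower. A higher pseudocount, a stricter filter and a stricter place each call fewer genes by construction. Of the 7 kept genes of the fibroblast lists 4 (COL4A2, P4HB, FSTL1 and MMP2) were kept with cells thinned to 100000 reads. With the iNSLCs numbered 25 to 56 alone 4 were kept, P4HA2, P4HB, MMP2 and PLOD2, the last not among the 7. These alternatives for kept genes were chosen after seeing the data, and the cause was not tested. The set of 1199 fibroblast genes relative to PSC cells held 532 with a pseudocount of 10, 773 at equal totals and 1115 to 1347 with 1 PSC cell left out. The median correlation with iNSLCs, 0.501, was 0.290 when genes under a mean of 10 were left out. Of the log2 ratios of named genes 863 moved by less than the spread between iNSLCs and 139 by more, and of list medians 107 and 25. The fibroblast is 1 cell, so its own spread was not measured and could not be put beside any value. No paired analysis was possible because the groups share no replicate numbers and the fibroblast is 1 cell.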
